A study of Mus musculus with 23 samples.

Results

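Mitochondrial ribosomal protein genes are nuclear genes whose protein products build the ribosome inside mitochondria. Their promoters were followed in ATAC-seq data, in which a transposase inserts adapters into open chromatin, from 3T3-L1 cells, an established mouse preadipocyte line. The members were all genes with a symbol of the form Mrpl or Mrps followed by a number to which the authors had assigned at least 1 peak. For each gene and day the peak with the highest mean was used. This gave 60 genes of the 11533 that received a peak, 36 named for the large subunit (Mrpl) and 24 for the small subunit (Mrps). RefSeq lists 78 coding genes with such symbols.

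Cells received 50 nM siRNA against Kdm5c, which encodes a histone H3 lysine demethylase, or the same dose of a non-targeting control, called scramble. Transfection was at differentiation day -3 in sub-confluent cells, and nuclei were taken 24, 48 and 72 hours later, on days -2, -1 and 0. Kdm5c siRNA had 4, 4 and 3 libraries on days -2, -1 and 0, and scramble had 4 on each day, 23 in all. The labels do not say whether libraries came from separate cultures, so the spread between them may be technical.

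The mitochondrial ribosome translates the few proteins that mitochondrial DNA encodes, all of them core subunits of the respiratory chain and ATP synthase. Its RNAs come from mitochondrial DNA, while its proteins are made in the cytosol from nuclear genes and imported. NRF1 and the ETS-family factor GABP are textbook regulators of nuclear genes for mitochondria, and mitochondrial mass grows when preadipocytes turn into fat cells.

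Counts in peaks ranged from 4474964 to 14913397 per library, of which 781309 to 3345583 were nuclear. Of 13 preadipocyte or mesenchymal marker genes, 10, 7 and 8 had a peak on days -2, -1 and 0, and Pdgfra, Cd34 and Fbn1 had none on any day. None of 4 blood markers had a peak on any day. Lep was the only 1 of 6 mature adipocyte markers with a peak, on days -2 and 0, and Krt8 the only 1 of 4 epithelial markers, on day -2. Peaks were present for 2, 1 and 1 of 4 endothelial markers, and for 3 of 3 muscle markers on day -2 alone. The endothelial marker Kdr was the only one of its list with a peak on days -1 and 0. On day -1 it had 6.78 to 65.1 counts per kb per 1000000 nuclear counts in Kdm5c siRNA libraries. Scramble libraries had 64.9 to 87.7 on that day. On day 0 Kdr had 43.5 to 58.3 in Kdm5c siRNA and 24.8 to 74.7 in scramble libraries. The part of these markers in any result was not tested. The Kdm5c peak did not pass the test on any day, with log2 fold changes of -0.28, 0.10 and 0.14 for Kdm5c siRNA over scramble. Since an siRNA targets mRNA, accessibility at Kdm5c is no measure of the knockdown.

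The promoters of members that carry the highest signal or the largest differences are printed first, because later values refer to them. Each runs from 250 bases before to 50 bases after the RefSeq start on GRCm38.p6, 5′ to 3′ on the strand of the gene. Capitals mark matches on either strand to the 6 motifs searched: the NRF1 site with its central base free, CCGGAAG for ETS factors, AANATGG for YY1, CCAAT for the CCAAT box, GGGCGG for the GC box and TATAAA for the TATA box.
Mrpl17, chr7:105811038-105811337, minus strand: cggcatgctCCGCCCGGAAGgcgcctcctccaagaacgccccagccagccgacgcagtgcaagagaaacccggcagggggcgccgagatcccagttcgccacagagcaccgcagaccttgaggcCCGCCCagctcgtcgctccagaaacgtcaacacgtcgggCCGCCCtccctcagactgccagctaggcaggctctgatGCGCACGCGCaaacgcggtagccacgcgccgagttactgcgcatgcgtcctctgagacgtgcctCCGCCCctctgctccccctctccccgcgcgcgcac
Mrps33, chr6:39810887-39811186, minus strand: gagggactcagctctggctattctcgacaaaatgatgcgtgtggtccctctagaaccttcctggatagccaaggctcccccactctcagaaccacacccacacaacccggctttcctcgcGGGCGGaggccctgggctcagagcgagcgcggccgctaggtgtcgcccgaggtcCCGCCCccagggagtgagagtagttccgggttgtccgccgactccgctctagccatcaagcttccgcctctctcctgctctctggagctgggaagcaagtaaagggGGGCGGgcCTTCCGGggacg
Mrps14, chr1:160194965-160195264, plus strand: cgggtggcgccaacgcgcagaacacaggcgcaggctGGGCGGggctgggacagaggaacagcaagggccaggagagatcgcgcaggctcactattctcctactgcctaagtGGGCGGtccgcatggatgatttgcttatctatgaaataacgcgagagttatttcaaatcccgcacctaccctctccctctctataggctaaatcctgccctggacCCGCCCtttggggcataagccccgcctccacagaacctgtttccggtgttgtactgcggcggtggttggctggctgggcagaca
Mrpl40, chr16:18876588-18876887, minus strand: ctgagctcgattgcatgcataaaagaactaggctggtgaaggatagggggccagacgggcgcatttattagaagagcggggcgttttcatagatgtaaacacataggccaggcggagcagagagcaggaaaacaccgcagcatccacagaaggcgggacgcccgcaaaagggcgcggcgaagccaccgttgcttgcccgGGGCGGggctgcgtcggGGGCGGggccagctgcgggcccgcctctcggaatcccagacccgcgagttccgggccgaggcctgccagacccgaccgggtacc
Mrpl3, chr9:105053018-105053317, plus strand: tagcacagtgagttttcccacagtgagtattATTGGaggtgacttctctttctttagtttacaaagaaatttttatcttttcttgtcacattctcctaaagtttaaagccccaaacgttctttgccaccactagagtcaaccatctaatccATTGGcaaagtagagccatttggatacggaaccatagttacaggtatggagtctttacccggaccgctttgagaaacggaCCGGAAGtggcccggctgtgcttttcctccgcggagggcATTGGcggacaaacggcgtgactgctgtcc
Ndufs6, whose start lies in the Mrpl36 peak, chr13:73328433-73328732, minus strand: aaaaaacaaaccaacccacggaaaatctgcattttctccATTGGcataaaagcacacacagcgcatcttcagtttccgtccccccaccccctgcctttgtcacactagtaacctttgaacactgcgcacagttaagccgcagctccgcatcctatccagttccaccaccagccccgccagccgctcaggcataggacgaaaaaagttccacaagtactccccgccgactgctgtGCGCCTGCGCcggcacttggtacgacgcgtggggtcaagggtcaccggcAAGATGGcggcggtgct
Mrpl41, chr2:24975049-24975348, minus strand: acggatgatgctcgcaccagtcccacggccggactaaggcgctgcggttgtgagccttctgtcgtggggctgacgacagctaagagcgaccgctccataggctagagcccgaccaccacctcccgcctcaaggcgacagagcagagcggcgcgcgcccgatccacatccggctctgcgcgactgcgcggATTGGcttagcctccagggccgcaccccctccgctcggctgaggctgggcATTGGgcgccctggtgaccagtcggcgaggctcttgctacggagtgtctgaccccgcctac

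The promoter of Mrpl17, the member with the highest count density, held 1 NRF1 match, 1 ETS match and 4 GC boxes at a GC content of 69.7%. The promoters of Mrps33 and Mrps14 held 3 GC boxes each, and that of Mrpl40 held 2. The Mrpl3 promoter had the lowest GC content of the 7 printed, 46.3%, with 3 CCAAT boxes and 1 ETS match. The Ndufs6 promoter held 1 match each to NRF1, YY1 and the CCAAT box. Over the 53 members with a promoter in the RefSeq table, NRF1 matches were found in 20.8%. This compares with 10.03% of 8574 other genes with an assigned peak and 4.75% of all 26956 other promoters. The larger set includes the 8574 genes. The ETS motif was found in 34.0% of member promoters, against 16.9% and 9.05% of those other sets. The YY1 motif was found in 32.1%, against 14.5% and 16.3%. The GC box was found in 49.1% of member promoters, against 66.2% and 35.9%. The CCAAT box was found in 43.4%, against 38.5% and 37.9%. The TATA box was found in 3.77%, against 6.87% and 14.2%. Median GC content was 59.0% in members, 61.3% in other genes with a peak and 52.7% in all other promoters. These matches describe the letters in the window, and the sets differ in base composition. NRF1 and GC box letters overlap in GC-rich sequence.

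Many members start close to another gene. An oppositely oriented coding gene started within 1 kb of 15 of the 53 members with a known start, 28.3%, against 875 of 8574 other genes with a peak, 10.2%. Some partners also serve mitochondria. Mrpl43 lies opposite Twnk, the helicase of mitochondrial DNA, and Mrps12 lies opposite Sars2, the mitochondrial seryl-tRNA synthetase. Mrps11 lies opposite Mrpl46, so a small-subunit and a large-subunit gene share 1 accessible region. Mrpl49 lies opposite Fau, which encodes a cytosolic ribosomal protein fused to a ubiquitin-like protein, Mrpl40 opposite the histone chaperone gene Hira, and Mrpl32 opposite the proteasome subunit gene Psma2. Where 1 peak holds both starts, its ATAC-seq counts cannot be assigned to 1 of the 2 genes. Not every member peak held its partner's start. For example, those of Mrpl41 and Mrps18b on days -2 and -1 did not.

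Peaks were present for 60, 52 and 56 members on days -2, -1 and 0, and 51 had one on all 3 days. The peak held the RefSeq start in 49 of 53, 39 of 46 and 45 of 49 members with a known start. Median peak width was 684, 564 and 651 bases. The median member peak had 54.8, 35.0 and 46.6 raw counts per library, with ranges of 13.3 to 212, 6.25 to 151 and 7 to 170. After the filter on low counts 60, 48 and 54 members were tested. Mrpl11, Mrpl22, Mrpl24 and Mrpl27 were not tested on day -1, nor Mrpl27 and Mrpl42 on day 0.

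A further 18 Mrpl and Mrps genes had no peak under their own name. Of the 16 with a start in the table, that start lay in a peak assigned to another gene in 12, 10 and 11 cases on days -2, -1 and 0. It lay in a peak with no gene in 3, 2 and 3 cases and in no peak in 1, 4 and 2 cases. Thus the Mrpl18 start lay in a peak named for Tcp1, a chaperonin subunit gene, and the Mrpl47 start in one named for Ndufb5, a complex I subunit gene. Of these peaks 15, 12 and 14 were tested and none was called by edgeR. The Mrpl57 start, in a peak named for Ska3, had the smallest p among them, with 47.7 ± 6.37 normalised counts in Kdm5c siRNA libraries and 30.1 ± 7.27 in scramble libraries on day -1 (SD, n = 4 each; log2 fold change 0.65, SE 0.24, edgeR adjusted p = 0.86).

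Count density, in counts per kb of peak per 1000000 nuclear counts averaged over libraries, varied several-fold among members. On days -2, -1 and 0 the median member density was 32.9, 55.8 and 52.4, against 36.1, 60.9 and 54.8 for other genes with a peak. The median member stood at percentile 40.3, 40.4 and 45.3 of those genes. Each day has its own peak set, so densities were not compared between days.

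Mrpl17, a large-subunit protein also found in bacteria, had the highest density averaged over the 3 days, 103. Mrps33, a small-subunit protein specific to mitochondria, followed with 102, then Mrps18b with 88.3 and Mrps14 with 79.9. Of the members tested on all 3 days the lowest were Mrps11 with 36.2, Mrpl12 with 35.9, Mrpl52 with 34.8 and Mrps23 with 33.4. The neighbours Mrpl17 and Mrps33 changed places between days. Mrpl17 had 77.3, 119 and 114 on days -2, -1 and 0, and Mrps33 had 86.0, 105 and 116. Large-subunit members had median densities of 31.6, 55.8 and 52.0, and small-subunit members 34.9, 55.3 and 54.8. Across the 51 members with a peak on all 3 days, log2 density on day -2 correlated with that on day -1 at r = 0.80. The value was 0.77 between days -1 and 0 and 0.79 between days -2 and 0. These are correlations across genes, which are not independent replicates, and peak width and base composition are shared between days.

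**Figure D1:**
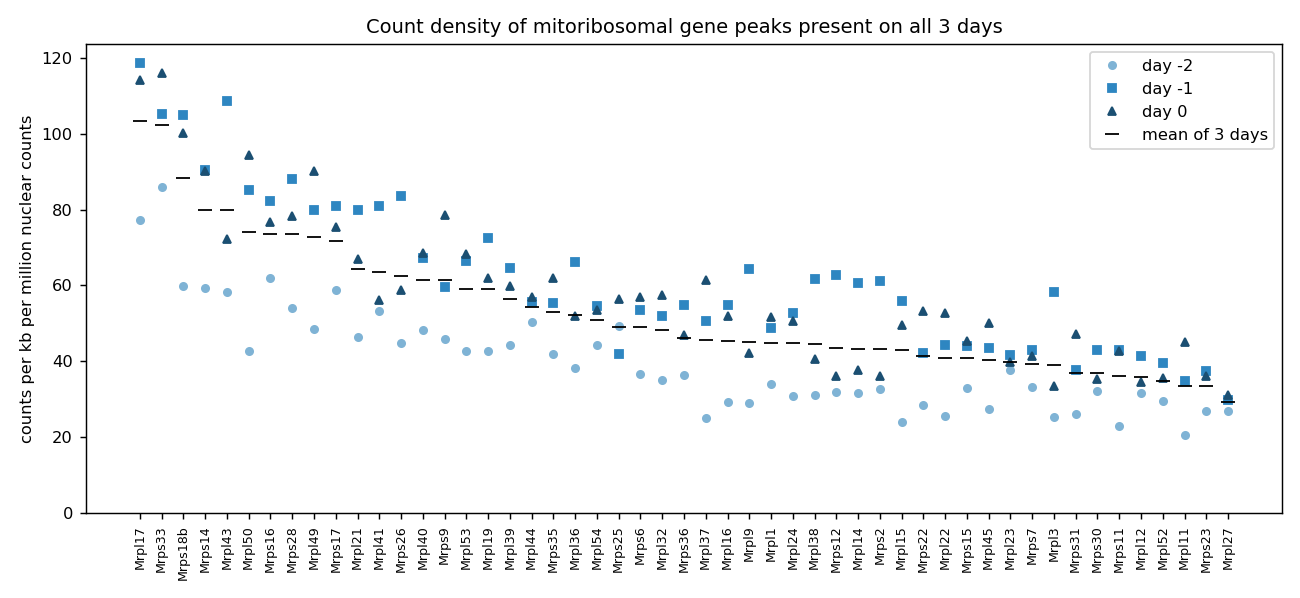
Count density per kb per 1000000 nuclear counts for the 51 members with a peak on all 3 days, ordered by the mean of the 3 days (dash), with 1 symbol per day. Mrpl17 and Mrps33 stand at the left with means of 103 and 102 and Mrps11, Mrpl12, Mrpl52 and Mrps23 lie towards the right.

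Several members had more than 1 assigned peak, 6, 3 and 3 on days -2, -1 and 0. Mrpl14 had 4 peaks on day -2, of which the one at the start held 36.8 ± 12.6 normalised counts in Kdm5c siRNA and 35.2 ± 4.19 in scramble libraries (SD, n = 4 each). Mrpl41 had a second peak on every day, 573, 568 and 691 bases from its start. The coding gene Pnpla7 starts on the opposite strand 935 bases from the Mrpl41 start, so these second peaks may belong to either gene. On day -1 that second peak held 19.1 ± 6.37 counts in Kdm5c siRNA and 10.6 ± 6.81 in scramble libraries (SD, n = 4 each), which is 0.84 in log2 (SE 0.41, edgeR adjusted p = 0.91). The Mrpl41 peak over the start had a log2 fold change of -0.02 (SE 0.19) on that day. Additional peaks also occurred at Mrpl11, Mrpl43, Mrpl55, Mrps30, Mrpl23, Mrpl27 and Mrpl4. At Mrpl11 on day -2 the other peak had a log2 fold change of 0.90 (SE 0.52), against -0.18 (SE 0.45) at the peak used. At Mrpl4 on day 0 the other peak had -0.88 (SE 0.52), against 0.41 (SE 0.45). At Mrpl43 and Mrps30 on day -2 both peaks of the gene had the same sign. Subunits were assigned by symbol alone, which can be wrong. Mrps30, for example, is counted with the small subunit, although in mammals its protein sits in the large subunit.

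The comparison of Kdm5c siRNA with scramble asks whether accessibility differed after the knockdown reagent. No member peak passed an edgeR adjusted p of 0.05 on any day. The counts were 0 of 60, 0 of 48 and 0 of 54 on days -2, -1 and 0, against 0.00404%, 0.0% and 0.00352% of all peaks tested. DESeq2 also called none. At an unadjusted p under 0.05, edgeR gave 2, 2 and 5 members, against 4.63%, 5.38% and 5.99% of all peaks, and DESeq2 gave 1, 1 and 4 members, against 3.25%, 4.8% and 5.29%. The edgeR members were 1 higher and 1 lower in Kdm5c siRNA on day -2, where all peaks gave 2.32% higher and 2.31% lower. Of 10137 genes with a tested nuclear peak, taken as 1 peak per gene, 301 were higher and 137 lower on that day. On day -1 the members were 0 higher and 2 lower, with 2.55% and 2.82% of all peaks. On day 0 they were 2 higher and 3 lower, with 2.67% and 3.32% of all peaks. The medians of the log2 fold changes were 0.0031, -0.10 and -0.01, against 2.6e-05, -0.0030 and -0.0091 over all peaks. On the 3 days 31, 17 and 24 members were above 0, and over all peaks the shares above 0 were 50.0%, 49.6% and 48.9%.

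Large-subunit members had median log2 fold changes of 0.0031, -0.11 and 0.04 on days -2, -1 and 0, and small-subunit members 0.0012, -0.10 and -0.03. Large-subunit genes at an unadjusted edgeR p under 0.05 numbered 2 of 36, 1 of 27 and 5 of 32 on the 3 days. Small-subunit genes at that level numbered 0 of 24, 1 of 21 and 0 of 22. The shares over all peaks were 4.63%, 5.38% and 5.99%. No test of the difference between subunits was made. Members with an oppositely oriented coding partner had medians of 0.04, -0.11 and -0.06 on days -2, -1 and 0, with 5 of 15, 9 of 13 and 10 of 13 below 0. Members without one had medians of -0.03, -0.12 and -0.01, with 20 of 38, 18 of 29 and 18 of 34 below 0. Mrpl36 was counted among these because partners were sought from the RefSeq start, although its peak covered the start of the coding gene Ndufs6.

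**Figure D2:**
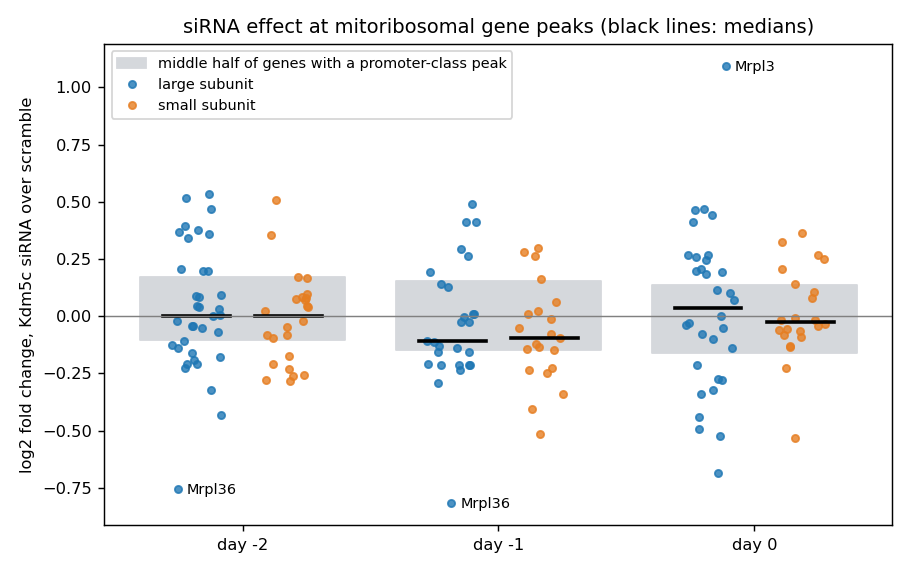
log2 fold change of Kdm5c siRNA over scramble at each tested member peak by day, large subunit in blue and small subunit in orange, with medians as black lines and the range between the lower and upper quartiles of all genes with a promoter-class peak in grey. Medians lie close to 0 on days -2 and 0 and at about -0.10 on day -1, and Mrpl36 and Mrpl3 stand apart.

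All values in one arm lay beyond all values in the other for 4 of 60 members on day -2. Of these, 3 were higher and 1 lower in Kdm5c siRNA. The share over all peaks was 2.87%, with 1.51% higher and 1.35% lower. Of the 10137 genes with a tested nuclear peak on that day, 198 were apart and higher and 95 apart and lower. On day -1 this held for 2 of 48, both lower, against 3.27%, with 1.58% higher and 1.69% lower. On day 0 it held for 4 of 54 tested members, 1 higher and 3 lower, against 6.22%, with 3.11% in each direction. The 4 on day 0 were Mrps2, which was higher in Kdm5c siRNA, and Mrpl41, Mrpl53 and Mrps25, which were lower. Mrpl27 was also lower in every Kdm5c siRNA library on that day but was below the filter.

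Among large-subunit genes, Mrpl36 was the 1 member whose arms were apart on more than 1 day. Its peak lay at chr13:73328169-73328682 on day -2. The peak covered the start of Ndufs6, a complex I subunit gene whose promoter is printed above, and 1 end of the Mrpl36 gene span. The RefSeq start used for Mrpl36 was 2327 bases away. On day -2 it held 47.1, 41.5, 34.4 and 15.6 normalised counts in Kdm5c siRNA libraries, against 55.7, 78.7, 52.3 and 51.5 in scramble libraries. Every Kdm5c siRNA library was below every scramble library, and 1 library in each arm stood away from the others. The log2 fold change was -0.75 (SE 0.24, edgeR adjusted p = 0.98). On day -1 the peak held 24.0, 16.2, 22.3 and 17.4 counts in Kdm5c siRNA libraries, against 35.5, 32.6, 47.6 and 26.7 in scramble libraries. The arms were again apart, with a log2 fold change equal to -0.82 (SE 0.28, edgeR adjusted p = 0.86). On day 0 the 3 Kdm5c siRNA libraries held 17.4, 26.0 and 35.7 counts, against 29.2, 36.3, 33.2 and 41.6 in scramble libraries. The arms overlapped on day 0, and the log2 value was -0.34 (SE 0.29, edgeR adjusted p = 0.93). The day 0 value was -0.16 without Kdm5c siRNA library 1 and -0.66 without library 4. With each library's mitochondrial to nuclear ratio as a covariate, the Mrpl36 values of days -2, -1 and 0 were -1.29, -0.82 and -0.59. That ratio did not overlap between the arms on days -2 and 0, so there the fit can hardly separate it from the siRNA. With scaling by total counts the Mrpl36 values were -0.30 on day -2, -0.43 on day -1 and 0.28 on day 0. No call was made for Mrpl36 on any day in any alternative fit.

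Mrpl23, a large-subunit protein conserved from bacteria, had 49.6, 55.1, 52.4 and 51.5 counts in Kdm5c siRNA libraries on day -2, against 39.2, 22.3, 33.5 and 46.7 in scramble libraries. Here the Kdm5c siRNA libraries were close together and all above the more scattered scramble libraries. The log2 fold change was 0.54 (SE 0.24, edgeR adjusted p = 0.98). It was 0.26 on day -1 and 0.11 on day 0, and the arms overlapped on both days. Mrpl28 had 45.9 ± 9.62 counts in Kdm5c siRNA and 33.2 ± 3.53 in scramble libraries on day -2 (SD, n = 4 each). Mrpl49 had 74.2 ± 3.09 in Kdm5c siRNA and 56.8 ± 17.99 in scramble libraries on that day (SD, n = 4 each). Their log2 fold changes were 0.47 (SE 0.25) and 0.37 (SE 0.20), both at an edgeR adjusted p of 0.98. At Mrpl49 1 scramble library, at 30.2, lay far below the other scramble libraries. Without it the Mrpl49 value was 0.16, and with the mitochondrial covariate it was 0.17. Without Kdm5c siRNA library 4 the Mrpl28 value was 0.30, and with the mitochondrial covariate it rose to 0.65. Mrpl23 had 0.50 on day -2 with that covariate.

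Mrpl3, whose bacterial counterpart is an early-binding protein of the large subunit, had the highest member value on day 0. It held 28.1, 19.5 and 39.0 counts in Kdm5c siRNA libraries, against 12.4, 11.0, 19.7 and 12.1 in scramble libraries. The arms overlapped through 1 scramble library, which slightly exceeded the lowest Kdm5c siRNA library. The log2 fold change was 1.09 (SE 0.37, edgeR adjusted p = 0.71), at one of the shallower member peaks. With the mitochondrial to nuclear ratio as a covariate, which did not overlap between the arms on that day, the Mrpl3 value was 0.61. On days -2 and -1 the log2 fold changes were 0.52 (SE 0.39) and 0.41 (SE 0.50).

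Mrpl41, Mrpl43 and Mrpl32, which all lie opposite a coding partner, had lower means in Kdm5c siRNA libraries on day 0. The Mrpl41 peak did not hold its partner's start. Mrpl41 had 75.04, 79.1 and 65.9 counts in Kdm5c siRNA libraries, against 91.0, 95.8, 104 and 105 in scramble libraries. Its arms did not overlap, and its log2 fold change was -0.44 (SE 0.18, edgeR adjusted p = 0.71). Mrpl43 averaged 44.7 ± 7.65 in Kdm5c siRNA (SD, n = 3) and 64.3 ± 13.6 in scramble libraries (SD, n = 4), for a difference of -0.49 in log2 (SE 0.22, edgeR adjusted p = 0.78). Mrpl32 averaged 37.6 ± 2.83 in Kdm5c siRNA (SD, n = 3) and 53.8 ± 12.8 in scramble libraries (SD, n = 4), for a difference of -0.52 in log2 (SE 0.24, edgeR adjusted p = 0.81). Mrpl44, a protein needed for assembly of the large subunit, had the higher mean in Kdm5c siRNA, with 68.2 ± 24.9 in Kdm5c siRNA (SD, n = 3) and 49.0 ± 11.4 in scramble libraries (SD, n = 4). Its log2 fold change was 0.44 (SE 0.21, edgeR adjusted p = 0.82). It was 0.21 without Kdm5c siRNA library 1 and 0.68 without library 2. With the mitochondrial covariate Mrpl44 had 0.22, Mrpl41 -0.28 and Mrpl32 -0.33, while Mrpl43 moved away from 0 to -0.60.

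Mrpl40 and Mrpl17 were large, well counted peaks. Mrpl40 had 140, 154, 148 and 124 counts in Kdm5c siRNA libraries on day -1, against 183, 152, 141 and 172 in scramble libraries. The arms overlapped, and the log2 fold changes were -0.23, -0.21 and -0.21 on days -2, -1 and 0, each with an SE of 0.14. Mrpl17 had 105 ± 7.60 in Kdm5c siRNA and 121 ± 7.52 in scramble libraries on day -1 (SD, n = 4 each), which is -0.21 in log2 (SE 0.14, edgeR adjusted p = 0.93). With the mitochondrial covariate the day -1 values were -0.16 for Mrpl40 and -0.19 for Mrpl17.

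Among small-subunit genes, Mrps22 was lower in every Kdm5c siRNA library on day -1. It held 25.03, 23.2, 21.2 and 27.5 counts in Kdm5c siRNA libraries, against 37.4, 28.8, 44.8 and 29.9 in scramble libraries. The log2 fold change was -0.51 (SE 0.27, edgeR adjusted p = 0.92). The Mrps22 values were 0.08 on day -2 and 0.21 on day 0, on the other side of 0. Mrps33 had 70.1, 68.4, 58.7 and 75.3 in Kdm5c siRNA libraries on day -1, against 71.9, 115, 82.6 and 74.8 in scramble libraries. The arms overlapped, and the log2 value was -0.34 (SE 0.17, edgeR adjusted p = 0.92). Without scramble library 2, the one at 115, it was -0.16. With the mitochondrial covariate the day -1 values were -0.61 for Mrps22 and -0.41 for Mrps33. Mrps23 had 66.7 ± 8.55 in Kdm5c siRNA and 52.2 ± 12.9 in scramble libraries on day -2 (SD, n = 4 each), which is 0.35 in log2 (SE 0.20, edgeR adjusted p = 0.98). Without scramble library 1 the Mrps23 value was 0.22.

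**Figure D3:**
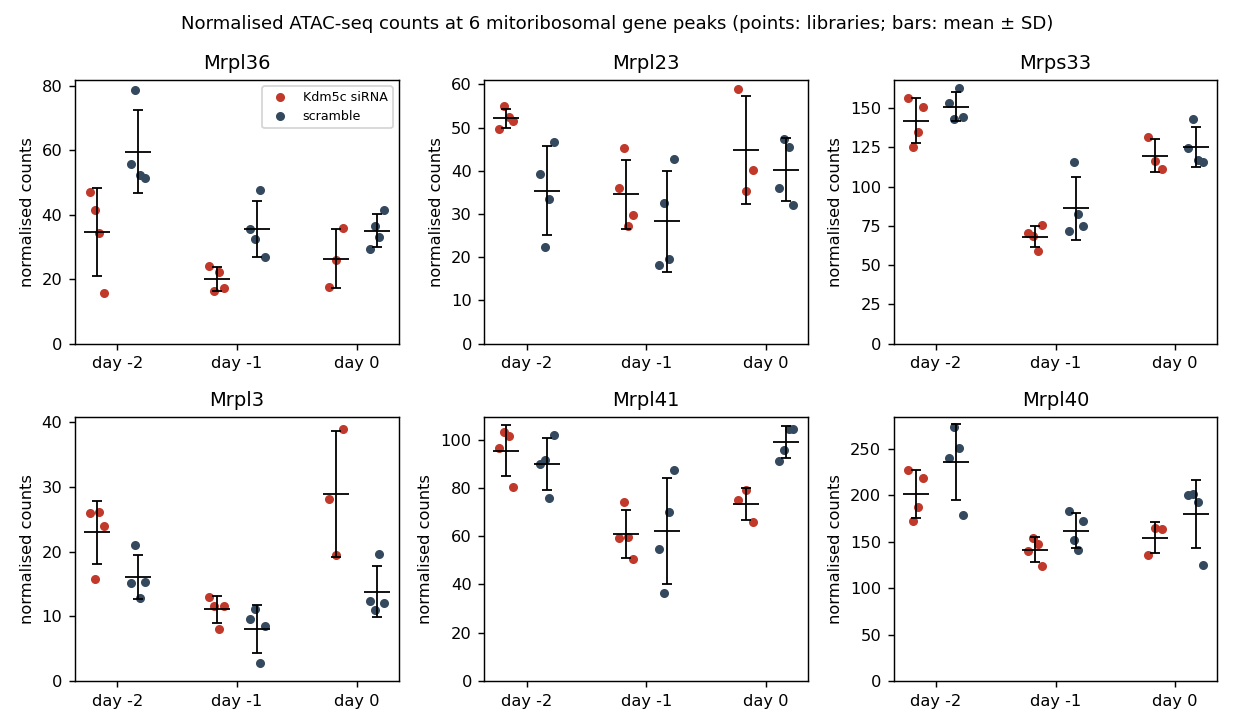
Normalised counts per library at 6 member peaks, by day, Kdm5c siRNA (red) left of scramble (dark blue), with the mean and SD as bars. The arms are apart for Mrpl36 on days -2 and -1, for Mrpl23 on day -2 and for Mrpl41 on day 0.

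Of the 47 members tested on all 3 days, 4 were above 0 on every day and 11 were below 0 on every day. The 4 were Mrpl23, Mrpl3, Mrpl38 and Mrps23, and the 11 included Mrpl36, Mrpl40, Mrpl32 and Mrps33. Over all 8197 genes with such values 1120 were above 0 and 1073 below 0 on every day. Across the 47 members the log2 fold changes of days -2 and -1, which come from separate libraries, correlated at r = 0.51. The value was 0.14 between days -1 and 0 and 0.32 between days -2 and 0. Without Mrpl36 and Mrpl3 these were 0.28, -0.14 and 0.07 over 45 members, so much of the correlation rested on those genes. Over the 8197 genes they were 0.07, 0.03 and -0.02. These correlations are over genes and are given as a description.

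**Figure D4:**
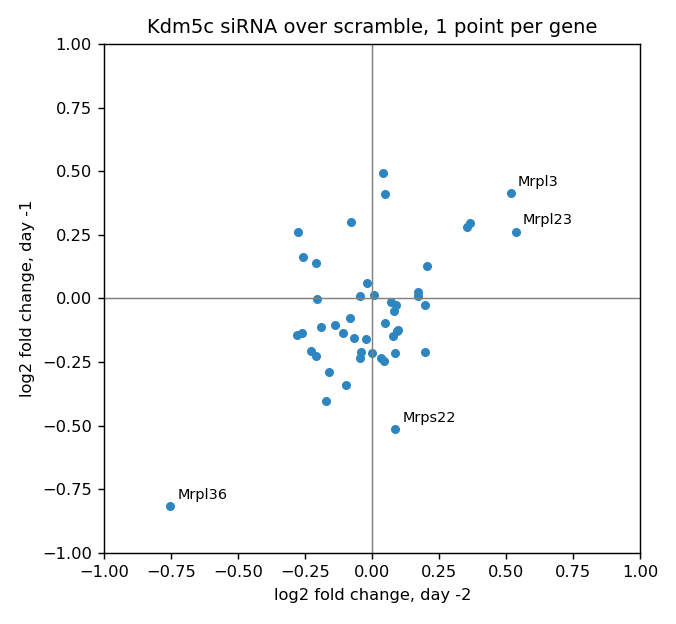
log2 fold change of Kdm5c siRNA over scramble on day -2 (x axis) and day -1 (y axis), 1 point for each of the 47 members tested on all 3 days. Mrpl36 lies alone at the lower left, at -0.75 and -0.82, and the other members form a loose cloud around 0.

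Whether the effect of the siRNA differed between days was tested at 13674 peaks matched over the 3 days, 43 of them member peaks. None of the 43 was called by edgeR for day -1 minus day -2, day 0 minus day -2 or day 0 minus day -1, against 0.0% of all matched peaks in each contrast. At an unadjusted p under 0.05 there were 1, 2 and 0 members, against 4.92%, 6.4% and 5.21% of matched peaks. Mrps14 had a log2 effect that was higher by 0.53 on day -1 than on day -2 (SE 0.25, edgeR adjusted p = 0.96). For day 0 minus day -2 the values were -0.56 for Mrpl41 (SE 0.25) and -0.67 for Mrpl49 (SE 0.29), both at an edgeR adjusted p of 0.73.

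Mitochondrial DNA is not packed in nucleosomes and yields many ATAC-seq reads, so each library was also described by its mitochondrial share of counts in peaks. That share averaged 63.8% ± 6.26 in Kdm5c siRNA and 73.5% ± 2.85 in scramble libraries on day -2 (SD, n = 4 each; two-sided exact permutation p = 0.0286, adjusted over the 3 days 0.0857). On day -1 it averaged 90.02% ± 2.49 in Kdm5c siRNA and 92.3% ± 1.01 in scramble libraries (SD, n = 4 each; exact permutation p = 0.2, adjusted 0.2). On day 0 it averaged 84.1% ± 4.58 in Kdm5c siRNA (n = 3) and 88.8% ± 1.77 in scramble libraries (n = 4; exact permutation p = 0.0571, adjusted 0.0857). Each day had lower means in the Kdm5c siRNA libraries, the arms did not overlap on days -2 and 0, and none passed 0.05 after adjustment. For 4 against 4 the smallest p this test can give is 0.0286, and for 3 against 4 it is 0.0571.

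The member peaks together held 0.144% to 0.223% of the nuclear counts of a library, with higher shares on days -1 and 0, which have smaller peak sets, than on day -2. On day -2 that part was 0.157%, 0.144%, 0.160% and 0.160% in Kdm5c siRNA libraries, against 0.159%, 0.164%, 0.164% and 0.150% in scramble libraries. The arms overlapped and the means differed by less than 1 SD of either arm. On day -1 it averaged 0.197% ± 0.00522 in Kdm5c siRNA and 0.206% ± 0.0107 in scramble libraries (SD, n = 4 each). On day 0 it averaged 0.214% ± 0.00860 in Kdm5c siRNA (SD, n = 3) and 0.212% ± 0.00573 in scramble libraries (SD, n = 4). As a share of all counts, mitochondrial ones included, the members instead averaged 0.0561% in Kdm5c siRNA and 0.0421% in scramble libraries on day -2. On day -1 these averages were 0.0196% in Kdm5c siRNA and 0.0158% in scramble libraries, and for day 0 they were 0.0343% in Kdm5c siRNA and 0.0237% in scramble libraries.

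The log2 ratio of Kdm5c siRNA over scramble in the share of all counts was 0.41, 0.29 and 0.50 on days -2, -1 and 0. It is the sum of the ratio in the share of nuclear counts, -0.03, -0.07 and 0.01, and the ratio in the nuclear fraction of each library, 0.44, 0.35 and 0.49. Scaling by total counts in the fit moved the median over all peaks to 0.42, 0.38 and 0.56 and the member median to 0.43, 0.28 and 0.56. Under it 58 of 60, 46 of 48 and 53 of 54 members were above 0. That scaling called 1 of 60 members on day -2, Mrpl23 at a log2 fold change of 0.96, against 1.53% of all peaks. It called no member on days -1 and 0, against 0.00429% and 0.0% of all peaks. It put Mrps33, Mrpl40 and Mrpl17 on day -1 and Mrpl41, Mrpl43, Mrpl32 and Mrpl36 on day 0 above 0. With the mitochondrial to nuclear ratio as a covariate the member medians were 0.02, -0.09 and 0.00099 and none was called. Because the arms did not overlap in that ratio on days -2 and 0, this fit can hardly separate it from the siRNA there.

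Within groups, the relation of a library's log2 mitochondrial to nuclear ratio to the members' share of nuclear counts differed in sign between days. Over the 23 libraries, as deviations from group means, Pearson's r was 0.085 and Spearman's rho 0.093, and r was 0.149 without the 2 libraries farthest from the median. Within days -2, -1 and 0 Pearson's r was 0.28, 0.35 and -0.52 and Spearman's rho 0.69, 0.17 and -0.64, over 8, 8 and 7 libraries, so the pooled value sets days of opposite sign together. For the share of all counts r was -0.97, where both measures hold the mitochondrial counts. Over the 51 members with a peak on all 3 days the r of single genes had a median of 0.0231 and ran from -0.46 to 0.54, with 29 above 0, and the median over 8449 genes was 0.0527. Mrpl15, Mrpl22 and Mrpl11 had the lowest values, -0.46, -0.41 and -0.39. Mrps14, Mrps31 and Mrps15 had the highest, 0.54, 0.47 and 0.43. These values share the same 23 libraries and are given as a description, with no p.

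**Figure D5:**
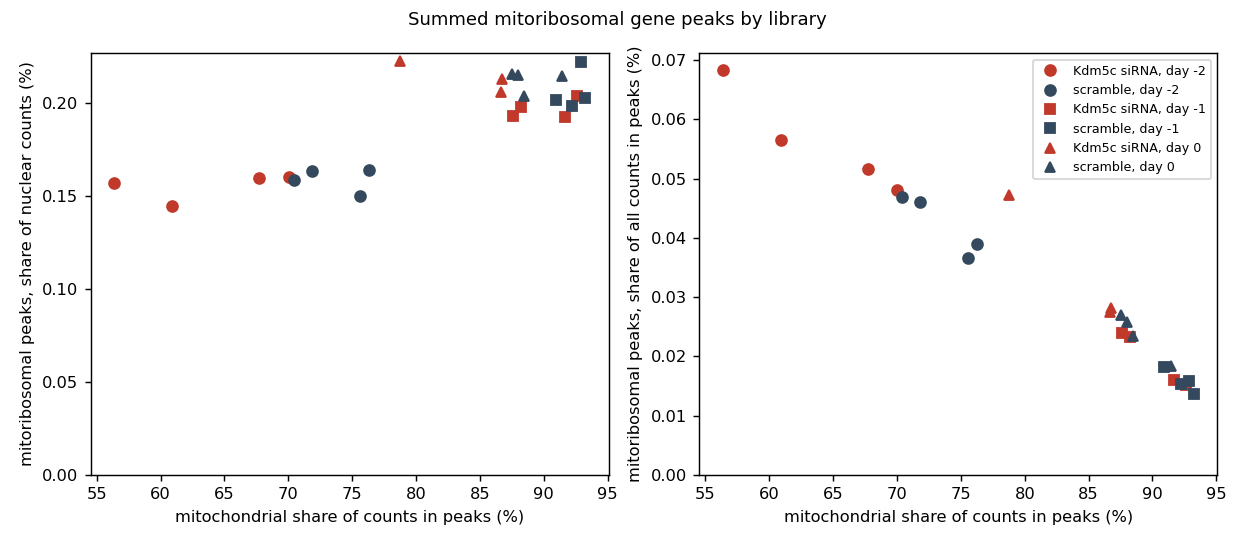
Summed member peaks in each library as a share of nuclear counts (left) and of all counts (right), against the mitochondrial share of counts in peaks, Kdm5c siRNA in red and scramble in dark blue, with symbols for days. On the left the arms overlap within each day, and on the right the share of all counts is lower where the mitochondrial share is higher.

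Other genes of mitochondrial gene expression were counted from 6 lists, and none was called on any day. The lists count symbols, some of which are older names. Ict1 and Mrp63 are older names of Mrpl58 and Mrpl57, Gtpbp5 of Mtg2 and Peo1 of Twnk. Over all peaks 4.63%, 5.38% and 5.99% had an unadjusted p under 0.05 on days -2, -1 and 0, the level used for the counts that follow. Of the 8 further symbols listed for mitoribosome proteins, 4, 4 and 3 were tested on days -2, -1 and 0, with 0 at an unadjusted p under 0.05. Among 17 mitochondrial translation factors 15, 13 and 13 were tested, with 1 lower on each day. These were Mtif3, an initiation factor, at -0.59 on day -2, Mrrf, the ribosome recycling factor, at -0.35 on day -1, and Tsfm, an elongation factor, at -0.67 on day 0. Among 17 mitochondrial aminoacyl-tRNA synthetases 13, 12 and 12 were tested, and Cars2 on day 0 was the only one at that level, at -0.42. Among 26 symbols of assembly and rRNA modification genes 20, 17 and 17 were tested. Mtg1, an assembly GTPase, had -0.38 and Mrm2, an rRNA methyltransferase, 0.39 on day -2, and Noa1, another GTPase, had -0.40 on day 0. Noa1 averaged 143 ± 10.5 in Kdm5c siRNA (SD, n = 3) and 189 ± 9.57 in scramble libraries (SD, n = 4; edgeR adjusted p = 0.71).

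Among 16 symbols for genes of mitochondrial DNA maintenance and transcription 12, 11 and 12 were tested. Mgme1, a nuclease of mitochondrial DNA replication, was the only one at an unadjusted p under 0.05. It averaged 83.7 ± 10.5 in Kdm5c siRNA (SD, n = 3) and 118 ± 17.01 in scramble libraries (SD, n = 4) on day 0. That is -0.47 in log2 (SE 0.17, edgeR adjusted p = 0.71). Among 12 regulators 11 were tested on each day, and Myc on day -1 (0.61) and Nfe2l2 on day 0 (0.30) were at that level. The peaks of Nrf1 and Gabpa, which encode NRF1 and a GABP subunit, had log2 fold changes of 0.04, 0.07 and -0.30 and of -0.05, -0.05 and 0.02 on days -2, -1 and 0.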

How the data were processed

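Per the labels' protocols, ATAC-seq was made from nuclei of transfected 3T3-L1 cells. Per day, the authors deposited whole-number read counts for all peaks and a table of normalised signal for peaks with a gene name. Each library's deposited signal equalled its counts divided by 1 constant, to a relative spread of at most 9.18e-10. The submitters' processing notes name GRCm38 and, with no role, DESeq2 1.24.0, HTSeq 0.9.1, MACS2 2.1.1, Bowtie2 2.2.9 and cutadapt 2.3. No source used here gives how duplicates and the transposase offset were handled, or whether libraries were pooled for peak calling. Coordinates are printed as deposited.

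Raw counts of each day were tested with edgeR 4.0.16 (quasi-likelihood F test, TMM, filterByExpr, no covariate, that day's libraries), with Benjamini-Hochberg adjustment over all peaks and calls under 0.05. TMM makes fold changes relative to the bulk of nuclear peaks. To normalise, each raw count was divided by the library's effective size relative to the mean. Standard errors come from the F statistic. DESeq2 1.42.0 was a second tool. Differences between days were interactions in 1 fit over peaks matched by 50% reciprocal overlap (bedtools 2.31.1). The exact test for the mitochondrial share doubles the smaller tail. The edgeR fit of single days was checked on simulated counts with a fixed dispersion for all peaks. DESeq2 and the other fits were not checked in this way. Promoters, starts and gene spans are from RefSeq, GRCm38.p6.

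Members, lists and tests were chosen with earlier results of these data known. Genes were named by rule: the 5 smallest p of each day, arms apart on 2 or more days, the 4 highest and 4 lowest densities, 2 or more peaks, the 3 highest and 3 lowest r with the mitochondrial ratio, and from the other lists the smallest p of each day. Nrf1, Gabpa, Mrpl38, the other listed genes at an unadjusted p under 0.05, the other genes with arms apart on day 0 and the genes with no peak of their own were chosen with their values in view. Alternatives were other scalings, no filter, DESeq2, the mitochondrial ratio as covariate, a replicate block, summed peaks, peaks over the start (added after seeing the data) and leaving out each library.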

Additional observations from a re-analysis of the deposited data

Results flagged for a closer look

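Of 154 groups of 4 libraries checked, 9 held a library far from the other 3 by Dixon's criterion at the 95% level. Chance alone flags about 5% of such groups, and no explanation was weighed. In Kdm5c siRNA libraries these were Mrpl27 on day -2 with a low value of 9.578 normalised counts against 22.31 to 24.89, Mrps11 on day -1 with a low value of 21.02 against 25.29 to 26.05, and Mrps18b on day -1 with a high value of 99.12 against 76.55 to 77.09. In scramble libraries on day -2 they were Mrpl36 with a high value of 78.7 against 51.48 to 55.66 and Mrps15 with a high value of 68.21 against 50.31 to 52.28. In scramble libraries on day 0 they were Mrpl17 with a low value of 104.4 against 148.3 to 155.2, Mrpl3 with a high value of 19.65 against 11.01 to 12.36, and Mrpl40 with a low value of 124.7 against 192.9 to 201.4. The Mrpl17 and Mrpl3 values come from scramble library 3 and the Mrpl40 value from scramble library 4. The members' summed share of nuclear counts was also low in scramble library 3 on day 0, at 0.2036% against 0.2146% to 0.2153% in the others.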

How the results depend on the processing

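No member was called on any day by any alternative except scaling by total counts, which called 1 of 60 on day -2, Mrpl23 at 0.96, against 1.53% of all peaks. That scaling gave member medians of 0.43, 0.28 and 0.56 on days -2, -1 and 0, and turned 7 named values round, to 0.067 for Mrps33, 0.16 for Mrpl40 and 0.17 for Mrpl17 on day -1, and to 0.11 for Mrpl41, 0.10 for Mrpl43, 0.049 for Mrpl32 and 0.28 for Mrpl36 on day 0. Mitochondrial counts enter those totals by construction. None of the log2 fold changes of each day's 5 members with the smallest p, nor Mrpl36 on day 0, changed sign when a library was left out, but 6 of the 16 moved by over 1.5 times, to 0.30 for Mrpl28, 0.22 for Mrps23 and 0.16 for Mrpl49 on day -2, -0.16 for Mrps33 on day -1, and 0.21 or 0.68 for Mrpl44 and -0.16 or -0.66 for Mrpl36 on day 0.

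Calls over all peaks were few, 2, 0 and 1 on days -2, -1 and 0. On day -2 they were 1 with RLE size factors, 759 with total-count scaling, 1 with nuclear peaks only, 0 with DESeq2 and 0 with the mitochondrial covariate. On day -1 total-count scaling gave 1. On day 0 they were 2 with RLE, 0 with total-count scaling, 2 with nuclear peaks only, 6 with no filter, 0 with DESeq2 and 0 with the covariate. With replicate number as a block they were 5, 1 and 0. Leaving out 1 library gave 2 to 11, 0 to 0 and 0 to 10. The cause was not tested.

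Same-numbered libraries of the arms deviated together at r from -0.0366 to 0.151, with 1 of 11 pairs above 0.1, and 4 of 11 Kdm5c siRNA libraries lay closest to their own number, so the numbers were not taken as pairs. For the difference between days 0 and -2, 80% overlap called 1 peak, the block 1, and leaving out a library 0 to 7. For days -1 and -2 leaving out a library gave 0 to 2. The difference in the members' share was 0.0140, 0.0038 and 0.0106 percentage points as a share of all counts, and -0.0219 on day -1 as a share of promoter-class counts. The relation to the mitochondrial ratio was r = 0.35 within day -1, -0.52 within day 0 and -0.97 for the share of all counts.

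With a median of 54.8, 35.0 and 46.6 counts per member peak, the median SE of a log2 fold change was 0.21, 0.24 and 0.23. Differences near that size in single genes could not be told from the spread at this depth. Larger ones were not called either, such as -0.75 for Mrpl36 on day -2 and 1.09 for Mrpl3 on day 0. The lack of calls therefore does not exclude differences of that larger size.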
